A study of Mus musculus with 6 samples.

Results

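Ciliary margin marker genes are genes whose transcripts mark the rim of the developing optic cup, and 10 of them were followed here: Bmp4, Bmp7, Msx1, Msx2, Zic1, Zic2, Wfdc1, Sostdc1, Wls and Gja1. They were chosen by name, and every probe set that the array annotation assigns to one of these symbols was taken, giving 24 probe sets. The 10 genes are a small subset of the 18193 genes with a probe set of their own on the array. The measured values did not enter this choice of probe sets, but the 10 genes were chosen with earlier results of these data known. Bmp4, Zic2, Sostdc1 and Gja1 also stand in gene lists that the study drew from these same arrays, so their direction here is not independent evidence.

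The arrays compared Pax6-mutant retinal progenitor cells, carrying Pax6 loxP/loxP and the α-Cre transgene, with control progenitors that were Pax6+/+ and carried the same α-Cre transgene. All embryos were of the ICR strain at embryonic day 12, and each genotype gave 3 arrays, each of RNA from a separate pool of sorted GFP-positive cells. In α-Cre the retinal α enhancer and a Pax6 promoter drive Cre together with GFP in the peripheral part of the optic cup, the transgene is silent in some progenitors, and the controls carried no floxed allele. The values were RMA intensities, here put on the log2 scale, and p-values measure the spread between these pools.

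Of the 5 probe sets assigned to Pax6 itself, 1425960_s_at read 4.79, 4.88 and 4.45 in mutant cells, against 6.34, 6.44 and 6.14 in control cells, a log2 difference of -1.60 (limma, adjusted p = 0.00329). The other 4 differed by between -0.22 and 0.10 and did not pass the test. The array correlations were at least 0.995 within a genotype, and no pair of arrays held identical values. Whether any of these probe sets lies in the deleted exons was not examined, so the probe set that fell marks the label of each array and does not measure how complete the deletion was.

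The ciliary margin is the zone between the neural retina and the pigmented epithelium, and it later gives rise to the epithelia of the ciliary body and the iris. BMP ligands bind paired type I and type II receptors and act through phosphorylated Smads, and BMP4 from the optic cup is needed for ciliary body formation in the mouse. Wnt ligands are carried to the cell surface by Wls, bind Frizzled and Lrp receptors and act through β-catenin and TCF/LEF factors, and Wnt signalling at the rim of the optic cup favours a margin fate over a neural one.

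The 10 genes did not move as a block. Bmp4, Sostdc1 and Wls, which encode a BMP ligand, a secreted BMP and Wnt antagonist and a Wnt carrier, were higher in mutant cells by their brightest probe set. Zic2, a zinc finger transcription factor gene, was lower. The brightest probe sets of the remaining 6 genes, Bmp7, Msx1, Msx2, Zic1, Wfdc1 and Gja1, were not called in either direction. A probe set was called where the fold change was at least 1.5, the limma p was under 0.05 and the p adjusted by Benjamini-Hochberg over all 45037 probe sets was under 0.1.

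By these criteria 8 of the 24 probe sets were called higher in mutant cells, where 1.67% of all probe sets were called higher, and 1 was called lower, where 0.984% of all were. Counted by gene, 3 of 10 were higher, against 2.28% of all genes, and 1 was lower, against 0.918%. The 8 probe sets called higher belonged to 5 genes: 3 to Wls, 2 to Sostdc1 and 1 each to Bmp4, Bmp7 and Gja1. On the adjusted p alone, 11 were higher, where 5.04% of all probe sets were, and 5 were lower, where 4.55% were. The 3 mutant arrays all lay above the 3 control arrays for 14 probe sets, against 13.2% of all, and all below them for 6, against 15.1%. The median log2 difference of the 24 probe sets was 0.17, beside -0.02 over all probe sets on the array, and the differences ran between -0.71 for Zic2 and 1.57 for Bmp4. When the variance was not moderated, 3 probe sets, those of Bmp4 and the Wls sets 1423824_at and 1437434_a_at, were called higher and none was called lower.

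**Figure D1:**
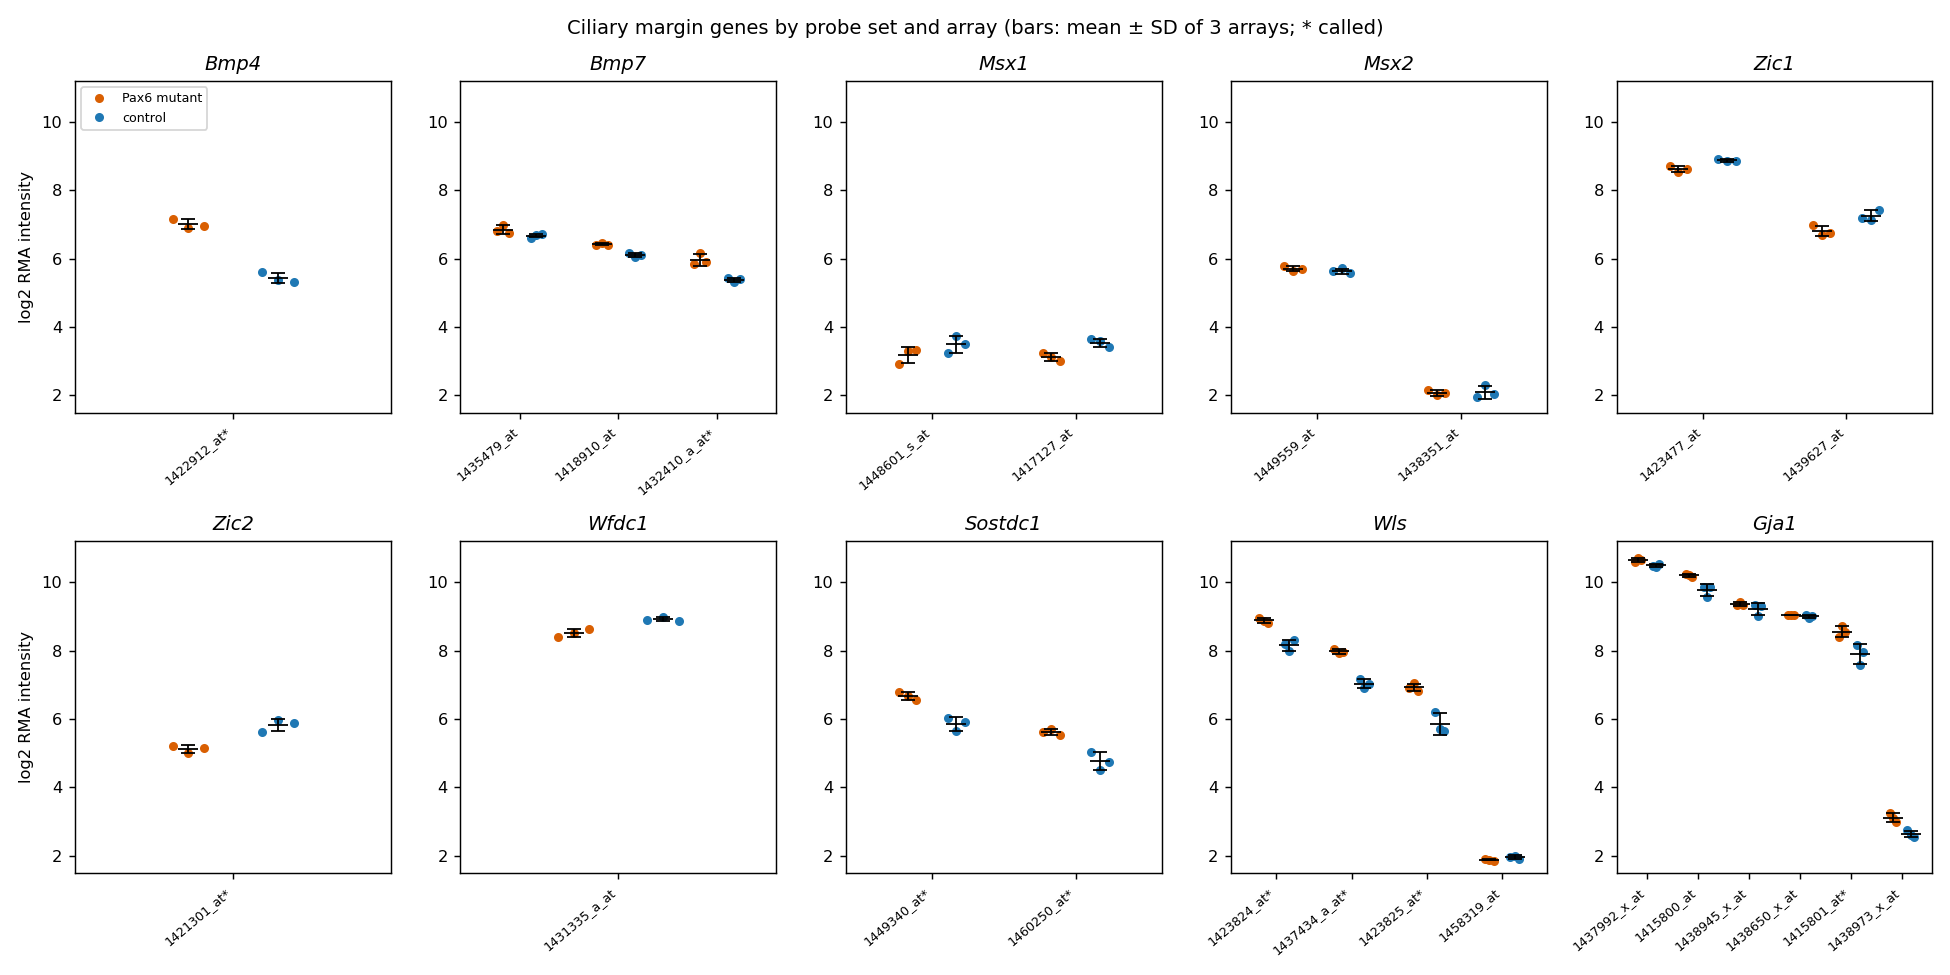
Log2 intensity of each of the 24 probe sets on each array, with Pax6-mutant arrays left of control arrays in every panel bars at each group mean ± SD of 3 arrays, and an asterisk at each called probe set. The Bmp4, Sostdc1 and brightest Wls panels show all 3 mutant points above all 3 control points, and the Zic2 panel shows them all below.

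**Figure D2:**
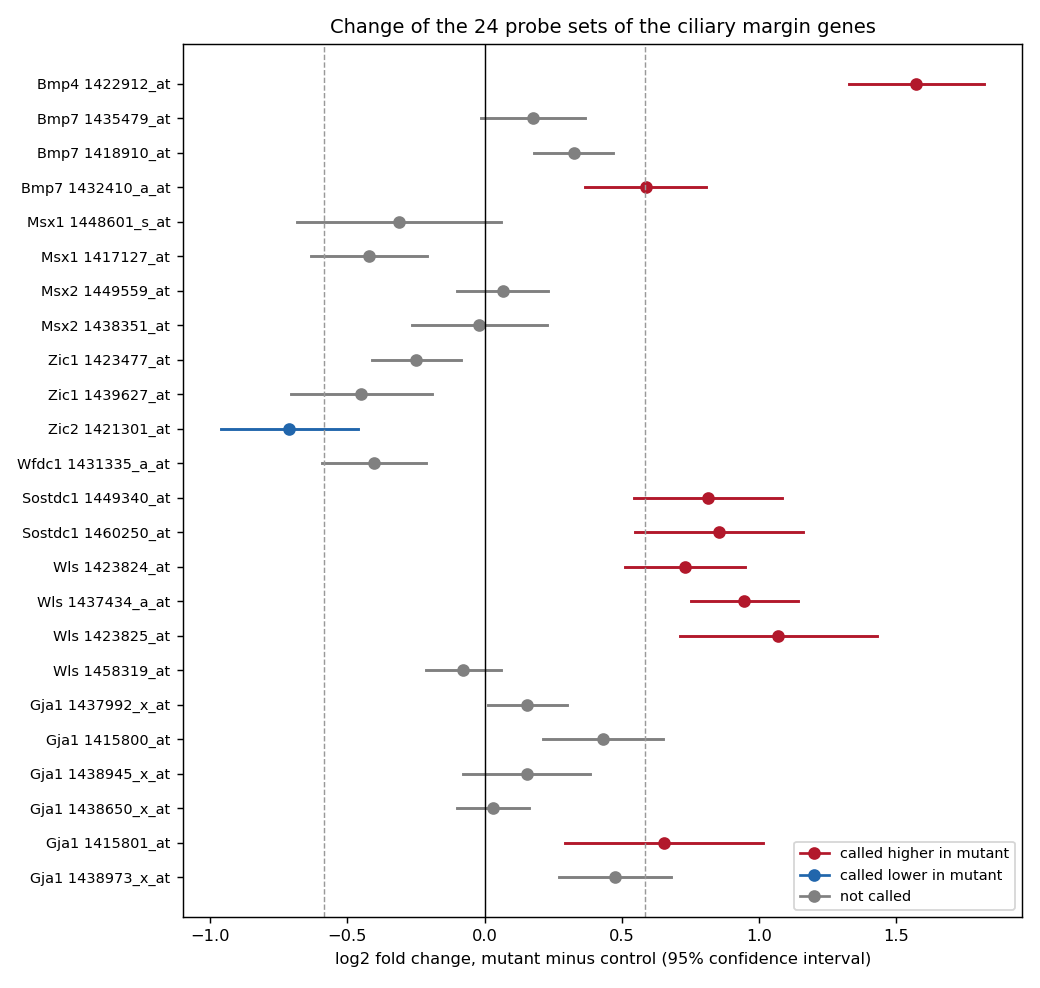
Log2 fold change, mutant minus control, of each probe set of the 10 genes, with its 95% confidence interval from limma and dashed lines at a 1.5-fold change. The estimates run between -0.71 for Zic2 and 1.57 for Bmp4, and for Gja1 and Wls the probe sets of 1 gene spread widely.

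Bmp4, the secreted BMP ligand of the dorsal optic cup, had the largest change of the 24 probe sets. Its single probe set, 1422912_at, read 7.17, 6.90 and 6.96 in mutant cells, against 5.61, 5.38 and 5.33 in control cells. The lowest mutant array was thus above the highest control array by more than the spread within either group. The means were 7.01 ± 0.14 in mutant cells and 5.44 ± 0.15 in control cells (SD, n = 3 each), a log2 difference of 1.57 with a 95% confidence interval of 1.33 to 1.82 and a standard error of 0.10, which is 2.98-fold (limma, adjusted p = 0.00202). With any 1 array left out the difference stayed between 1.5 and 1.66 and was called each time.

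RefSeq promoters were read for 6 of the 10 genes, Bmp4, Msx1, Msx2, Zic1, Wls and Gja1, on the mouse assembly GRCm38.p6. The 250 bases before the Bmp4 start, chr14:46390670-46390919 on the minus strand, are shown because this gene changed most, with its one match to a motif searched, the E-box CACGTG, in capitals:
Bmp4: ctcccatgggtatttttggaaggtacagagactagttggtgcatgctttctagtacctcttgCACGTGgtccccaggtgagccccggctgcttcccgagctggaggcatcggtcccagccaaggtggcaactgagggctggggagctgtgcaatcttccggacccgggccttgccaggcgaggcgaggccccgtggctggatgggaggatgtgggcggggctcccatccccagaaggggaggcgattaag
The match begins 188 bases before the start. Of 32851 RefSeq promoters of 300 bases, 7.15% hold CACGTG on either strand. The motifs were picked after the promoters had been read, so this share cannot weigh the match, which describes the letters only.

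Bmp7, a second BMP ligand of the early eye, was measured by 3 probe sets. On all 3 every mutant array lay above every control array, as on 13.2% of all probe sets. The brightest, 1435479_at, read 6.81, 7.0 and 6.75 in mutant cells, against 6.62, 6.69 and 6.71 in control cells, a difference of 0.18 with an interval of -0.01 to 0.37 (limma, adjusted p = 0.273). The groups were narrowly separated on this probe set, and it did not pass the test. Probe set 1418910_at gave 0.33 (limma, adjusted p = 0.0308), short of the fold threshold. Only 1432410_a_at was called, at 5.85, 6.16 and 5.90 in mutant cells and 5.43, 5.32 and 5.40 in control cells. Its difference of 0.59 (interval 0.37 to 0.81; limma, adjusted p = 0.0192) is 1.5-fold and lies just inside the threshold of 0.58 on the log2 scale. Without mutant replicate 2 it was 0.49 and without control replicate 2 it was 0.56, neither of them called.

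Of the other BMP ligands listed, 5 had a probe set of their own, 4 of them below the array median in both genotypes. The measured exception was Bmp2, related to Bmp4 in sequence, at 6.18, 6.38 and 6.10 in mutant cells and 5.37, 4.83 and 5.70 in control cells. The mutant arrays lay close together, while the control arrays were widely spread, and the difference was 0.92 ± 0.21 (SE; limma, adjusted p = 0.0524). The Bmp2 call was lost without any single mutant array (0.84 to 0.98) and without control replicate 1 (0.96), with the replicate number as a block (adjusted p = 0.106) and without moderation of the variance (adjusted p = 0.213). All 5 ligands had a positive difference, with a median of 0.29, beside -0.01 over all genes.

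Downstream of the ligands, the genes listed for BMP signalling showed few calls, where 2.28% of all genes were called higher and 0.918% lower. Among 10 receptors and Smads only Bmpr1b, a type I receptor of the ventral mouse retina, was called, at 6.34, 6.18 and 6.36 in mutant cells and 6.91, 6.77 and 6.97 in control cells. Its difference of -0.59 (limma, adjusted p = 0.0128) lies just past the fold threshold and was not called without mutant replicate 2 (-0.53), control replicate 1 (-0.58) or control replicate 3 (-0.54), or with the median of the gene's probe sets (-0.06). None of 9 antagonists was called. The extracellular BMP inhibitor Nog read 4.74, 5.10 and 5.03 in mutant cells, against 4.33, 4.38 and 4.53 in control cells, a difference of 0.54 (limma, adjusted p = 0.0380) under the fold threshold, which it passed without mutant replicate 1 (0.65) or control replicate 3 (0.60).

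Of 9 genes listed as BMP responses none was called in either direction. An unadjusted p under 0.05 was found for 5 of them, 4 lower and 1 higher in mutant cells, where 24.4% of all genes had one. On the adjusted p alone 4 passed, and these 4 were lower in mutant cells, where 950 of all 18193 genes were lower by that measure. Id1, a helix-loop-helix inhibitor induced by Smads, read 9.27, 9.23 and 9.33 in mutant cells and 9.85, 9.54 and 9.71 in control cells (-0.43; limma, adjusted p = 0.0435). Id3, of the same family, read 10.65, 10.56 and 10.63 in mutant cells and 10.97, 10.99 and 11.10 in control cells (-0.41; limma, adjusted p = 0.0190). The groups did not overlap for either Id gene, and both differences were short of 1.5-fold. The T-box genes Tbx2 and Tbx3, which mark the dorsal optic cup, differed by -0.41 and -0.39 (limma, adjusted p = 0.0205 and 0.0437). Over the alternatives Tbx2 stayed between -0.45 and -0.37, while Tbx3 was less stable, between -0.45 and -0.21. Tbx5, another dorsal T-box gene, differed by 0.46 (interval 0.11 to 0.81; limma, adjusted p = 0.140). The listed response genes had a median difference of -0.20, beside -0.01 over all genes. This median depends on which genes were listed: Bambi, Smad6 and Smad7, listed as antagonists, differed by 0.27, -0.33 and -0.21. Whether the response genes followed Bmp4 was not tested.

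Sostdc1 encodes a secreted cystine knot protein that binds BMPs and the Wnt co-receptors Lrp5 and Lrp6, and both of its probe sets were called higher. The brighter, 1449340_at, read 6.79, 6.68 and 6.55 in mutant cells, against 6.04, 5.64 and 5.90 in control cells. The means were 6.67 ± 0.12 in mutant cells and 5.86 ± 0.20 in control cells (SD, n = 3 each), a difference of 0.81 (interval 0.54 to 1.08; 1.76-fold; limma, adjusted p = 0.0132). The second, 1460250_at, read 5.61, 5.71 and 5.54 in mutant cells, against 5.03, 4.52 and 4.74 in control cells, a difference of 0.86 (interval 0.55 to 1.16; limma, adjusted p = 0.0167). The intervals of these probe sets overlap over most of their length. Control replicate 2 was the lowest array on both, and without it the differences were 0.70 and 0.73, still called. Neither was called when the variance was not moderated (adjusted p = 0.105 and 0.121).

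Wls, also called Wntless, encodes the membrane protein that carries lipid-modified Wnts to the cell surface, and 3 of its 4 probe sets were called higher. Probe set 1423824_at, the brightest, read 8.97, 8.88 and 8.82 in mutant cells, against 8.19, 7.98 and 8.30 in control cells, a difference of 0.73 (interval 0.51 to 0.95; 1.66-fold; limma, adjusted p = 0.0107). Probe set 1437434_a_at read 8.06, 7.93 and 7.95 in mutant cells, against 7.16, 6.91 and 7.03 in control cells, a difference of 0.95 (interval 0.75 to 1.14; 1.93-fold; limma, adjusted p = 0.00361). Probe set 1423825_at read 6.91, 7.04 and 6.83 in mutant cells, against 6.21, 5.71 and 5.64 in control cells, a difference of 1.07 (interval 0.71 to 1.43; 2.10-fold; limma, adjusted p = 0.0135). On all 3 the mutant arrays were clear of the control arrays, as on 13.2% of all probe sets, and the calls held with each array left out. The fourth, 1458319_at, read 1.90, 1.89 and 1.86 in mutant cells and 1.97, 2.00 and 1.91 in control cells, below the array median in both (-0.08; limma, adjusted p = 0.506).

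The Wls promoter is shown because 3 probe sets of this gene moved together. The 250 bases before its start, chr3:159839400-159839649 on the plus strand, held none of the motifs searched, while the M-box TCATGTGA, the letters bound by the pigment cell factor Mitf, begins 34 bases after the start base and is in capitals in the stretch chr3:159839676-159839699:
Wls upstream: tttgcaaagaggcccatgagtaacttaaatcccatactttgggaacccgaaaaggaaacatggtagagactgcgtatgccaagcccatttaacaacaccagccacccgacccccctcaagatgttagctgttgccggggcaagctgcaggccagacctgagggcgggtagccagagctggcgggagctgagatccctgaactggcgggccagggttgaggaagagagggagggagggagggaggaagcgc
Wls M-box: gaggcgtgTCATGTGAtccgcttc
The M-box letters occur in 0.986% of the 32851 promoters on either strand. The TCF/LEF core CTTTGA, found in 16% of all promoters, was in none of the 6 promoters searched. The 5 motifs were picked after these sequences had been read, so a match cannot be weighed against these shares. Absence of a match says only that the letters are not in this window.

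Of 12 further genes for Wnt ligands, their secretion and R-spondins, 1 was called higher, where 2.28% of all genes were. It was Rspo1, an R-spondin that raises Wnt receptor levels, at 0.65 (limma, adjusted p = 0.0205), from values below the array median in both genotypes. The Rspo1 call was lost without control replicate 1 (0.56), with a pseudocount of 16 (0.23) and without moderation of the variance (adjusted p = 0.123). Porcn, the acyltransferase that attaches the lipid on which Wls acts, read 6.16, 6.03 and 5.91 in mutant cells, against 5.85, 5.67 and 5.62 in control cells, a difference of 0.32 (interval 0.10 to 0.54; limma, adjusted p = 0.103).

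Among 13 Wnt receptor genes, Fzd8 was higher by 0.74 (limma, adjusted p = 0.00703) and Lgr5, an R-spondin receptor and Wnt target, was lower by a log2 difference of -1.06 (limma, adjusted p = 0.00361). With the median of a gene's probe sets neither was called, at 0.56 for Fzd8 and -0.53 for Lgr5. Of 9 genes listed as Wnt antagonists 3 were lower and none was higher. Dkk3, listed by its family, differed by -1.03, Sfrp2 by -0.98 and Notum, an enzyme that strips the Wnt lipid, by -0.74. The Notum call was lost without moderation of the variance (adjusted p = 0.111) and with a pseudocount of 16 (-0.42). Dkk3 and Sfrp2 are also in the list of retinal progenitor markers. Of 9 Wnt response genes only Nkd2, an intracellular inhibitor induced by Wnt, was called, at 4.18, 3.84 and 3.63 in mutant cells and 4.78, 5.29 and 5.25 in control cells (-1.22; limma, adjusted p = 0.0155, and 0.125 without moderation of the variance). Axin2, the most widely used Wnt readout, read 5.88, 5.86 and 5.85 in mutant cells and 5.96, 5.68 and 5.89 in control cells, a difference of 0.02 with an interval of -0.17 to 0.21. Lef1 differed by 0.23 (interval 0.03 to 0.43; limma, adjusted p = 0.182). Over all 43 Wnt genes, without Wls, 2 were higher and 5 lower, with a median of 0.09, and over all 33 BMP genes, without Bmp4 and Bmp7, 1 was higher and 1 lower, with a median of 0.01. Of all genes on the array, 2.28% were called higher and 0.918% lower.

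**Figure D3:**
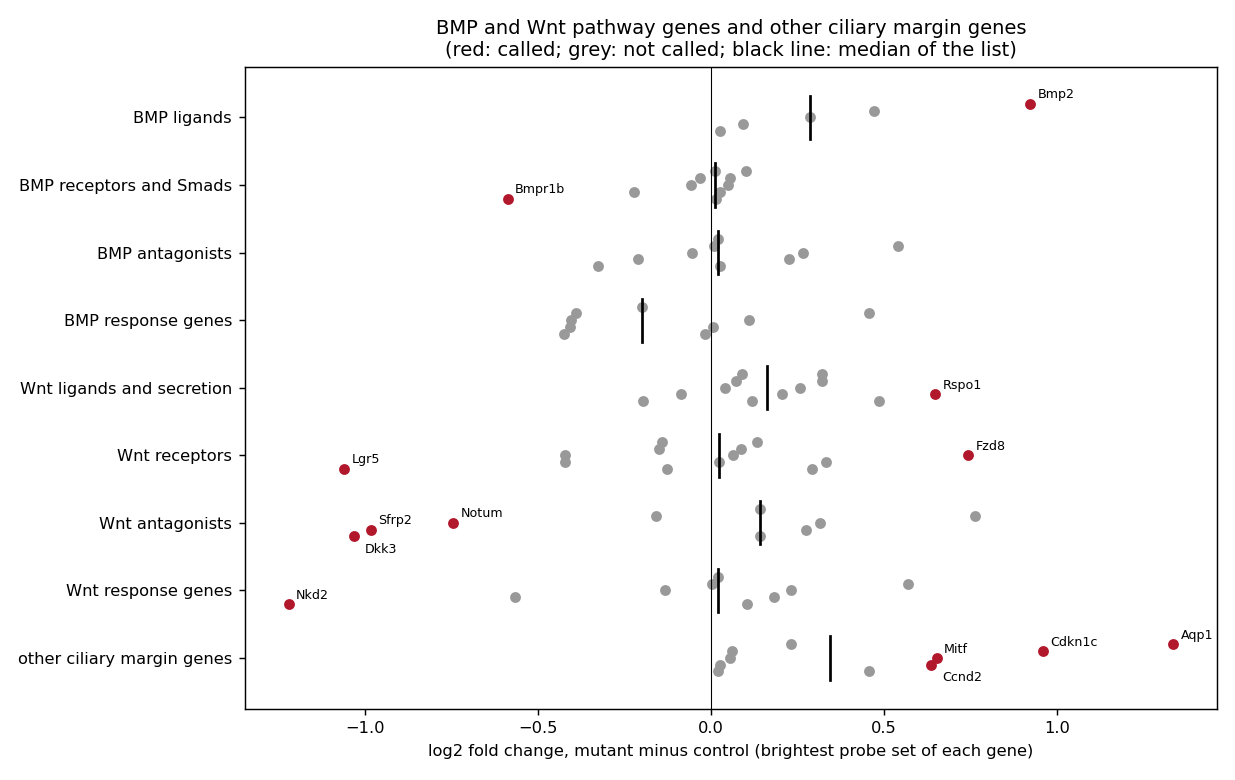
Log2 fold change, mutant minus control, of each gene of the BMP, Wnt and other ciliary margin lists by its brightest probe set, 1 row per list, with called genes in red and the list median as a black line. Of the 9 lists plotted, that of other ciliary margin genes has the highest median, 0.34, and the BMP response genes the lowest, -0.20.

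Msx1 and Msx2 encode homeodomain repressors that are induced by BMPs in many tissues, and none of their 4 probe sets was called. Both Msx1 probe sets lay below the array median in both genotypes, so the measurement of Msx1 is weak. The brightest, 1448601_s_at, read 2.92, 3.30 and 3.33 in mutant cells and 3.23, 3.74 and 3.51 in control cells, with overlapping groups (-0.31; interval -0.68 to 0.06; limma, adjusted p = 0.317). On 1417127_at every mutant array was below every control array, at 3.25, 3.11 and 3.01 in mutant cells and 3.64, 3.59 and 3.42 in control cells. The difference there was -0.42 (interval -0.63 to -0.21; limma, adjusted p = 0.0460), under the fold threshold.

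Msx2 was measured above the array median by 1449559_at, at 5.78, 5.63 and 5.71 in mutant cells and 5.64, 5.72 and 5.57 in control cells. The groups overlapped, and the difference of 0.07 has an interval of -0.10 to 0.23, which leaves out a 1.5-fold change either way (limma, adjusted p = 0.642). The second Msx2 probe set, 1438351_at, was below the array median and differed by -0.02 (interval -0.27 to 0.23). Msx3, the third family member, was not called either. The Msx2 promoter held 1 match to the homeodomain core TAATTA, 187 bases before the start, and the Msx1 promoter held none of the 5 motifs. TAATTA is in 5.29% of all promoters, a share that cannot weigh a match to a motif picked after the promoters had been read.

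Zic2, a zinc finger factor of the optic cup and the dorsal neural tube, was the one gene of the 10 that was called lower. Its probe set 1421301_at read 5.21, 5.0 and 5.14 in mutant cells, against 5.63, 5.97 and 5.88 in control cells. The highest mutant array was below the lowest control array. The means were 5.12 ± 0.11 in mutant cells and 5.83 ± 0.18 in control cells (SD, n = 3 each), and the difference was -0.71 (interval -0.96 to -0.46; 1.64-fold lower; limma, adjusted p = 0.0153). The call held with each array left out (-0.81 to -0.64), and it was lost without moderation of the variance (adjusted p = 0.109) and with a pseudocount of 16 (-0.52).

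Zic1, a close relative of Zic2, was below control on every mutant array on both of its probe sets, as were 15.1% of all probe sets. Both were short of the fold threshold. The brightest, 1423477_at, read 8.72, 8.53 and 8.64 in mutant cells, against 8.92, 8.86 and 8.85 in control cells, a difference of -0.25 (interval -0.41 to -0.09; limma, adjusted p = 0.0920). The other, 1439627_at, read 6.97, 6.69 and 6.76 in mutant cells, against 7.19, 7.14 and 7.44 in control cells, a difference of -0.45 (interval -0.71 to -0.19; limma, adjusted p = 0.0652). Zic5, a further Zic gene, read 7.57, 7.40 and 7.54 in mutant cells, against 7.84, 7.83 and 8.01 in control cells, also without overlap, and its difference of -0.39 (interval -0.58 to -0.21; limma, adjusted p = 0.0390) was under the fold threshold, which it passed with the median of its probe sets (-0.62). All 4 of these Zic1, Zic2 and Zic5 probe sets had lower values in mutant cells, and only that of Zic2 was called. Zic4, read below the array median in both genotypes, differed by 0.01 (interval -0.23 to 0.25), with overlapping groups.

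The Zic1 promoter is shown because, of the 6 promoters, it alone held matches to more than 1 of the motifs. In the 250 bases before its start, chr9:91365769-91366018 on the minus strand, the capitals mark the GC-rich letters GGCGCC of BMP-responsive elements and the E-box CACGTG:
Zic1: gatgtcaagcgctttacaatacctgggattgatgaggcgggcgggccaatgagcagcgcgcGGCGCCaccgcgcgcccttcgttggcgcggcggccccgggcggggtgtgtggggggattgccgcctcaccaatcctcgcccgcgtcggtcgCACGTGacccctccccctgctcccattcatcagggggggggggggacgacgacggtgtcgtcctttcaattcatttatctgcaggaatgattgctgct
They begin 189 and 98 bases before the start, and GGCGCC is in 11.9% of all promoters on either strand. The E-box is the only motif searched that was found in more than 1 of the 6 promoters, those of Bmp4 and Zic1, on a background of 7.15%. Because the motifs were picked after these sequences had been read, that count cannot be weighed against the background.

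Wfdc1 encodes a secreted protein with a WAP four-disulphide core, and its single probe set, 1431335_a_at, was not called. It read 8.40, 8.51 and 8.64 in mutant cells, against 8.90, 8.99 and 8.87 in control cells. Every mutant array was below every control array, and the difference was -0.40 (interval -0.59 to -0.21; 1.32-fold lower; limma, adjusted p = 0.0373), under the fold threshold in the full fit and with each array left out (-0.46 to -0.34). Its relative Wfdc2 was the only gene called among 6 relatives of Wfdc1 and Sostdc1, where 2.28% of all genes were called higher. It lay the other way from Wfdc1, at 7.15, 7.16 and 7.23 in mutant cells and 6.55, 6.37 and 6.45 in control cells (0.72; limma, adjusted p = 0.00457).

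Gja1 encodes a connexin, the gap junction protein of ciliary epithelium among other tissues, and its 6 probe sets did not give 1 answer. Only 1415801_at was called, at 8.41, 8.71 and 8.54 in mutant cells and 8.16, 7.58 and 7.95 in control cells (0.65; interval 0.29 to 1.01; 1.57-fold; limma, adjusted p = 0.0576). That call was lost without mutant replicate 1 (0.73), 2 (0.57) or 3 (0.66) and without control replicate 2 (0.50) or 3 (0.68). It stayed called without control replicate 1 alone. With the replicate number as a block the adjusted p was 0.128.

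Probe set 1415800_at read 10.24, 10.22 and 10.15 in mutant cells, against 9.87, 9.58 and 9.87 in control cells, a difference of 0.43 (limma, adjusted p = 0.0465). The brightest Gja1 probe set, 1437992_x_at, read 10.60, 10.70 and 10.65 in mutant cells, against 10.47, 10.46 and 10.54 in control cells, without overlap, and differed by 0.16 (interval 0.01 to 0.30; limma, adjusted p = 0.209). The other 3 differed by 0.15 (1438945_x_at), 0.03 (1438650_x_at) and 0.48 (1438973_x_at), the last below the array median in both genotypes. All 6 differences were positive, and 4 of the 6 are x-type sets, whose probes can be shared with other transcripts. Of 10 other connexin genes none was called, where 2.28% of all genes were called higher and 0.918% lower, and the median was 0.01. An unadjusted p under 0.05 was found for 3 of these 10, near the 24.4% of all genes. Gjb2, a connexin of another subfamily, read 6.54, 6.52 and 6.39 in mutant cells, against 6.15, 5.76 and 6.01 in control cells, a difference of 0.51 under the fold threshold (limma, adjusted p = 0.0426).

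Related genes were set against each other on the same arrays in 3 pairs, by the log2 value of the first minus that of the second. These values hold the unequal brightness of the probe sets, so only their change between genotypes can be read. Bmp4 minus Bmp7 was 0.37, -0.09 and 0.22 in mutant cells, against -1.01, -1.31 and -1.39 in control cells, a change of 1.40. Zic1 minus Zic2 was 3.51, 3.54 and 3.50 in mutant cells, against 3.30, 2.89 and 2.97 in control cells, a change of 0.46. The genotypes did not overlap in either pair, and both gave an exact two-sided permutation p = 0.1 (adjusted over the 3 pairs, 0.15), the smallest that 3 against 3 arrays allow. Msx1 minus Msx2 changed by -0.38, with overlapping groups (exact permutation p = 0.3).

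The other 10 genes listed for the ciliary margin all had a positive difference, with a median of 0.34, beside -0.01 over all genes. Of these 10, 4 were called higher, against 2.28% of all genes. The list was chosen with earlier results of these data known. The study itself reported Ccnd2 and Cdkn1c as higher on these same arrays, so their direction is not independent evidence. Mitf is also counted among the pigment epithelium markers. The cell cycle genes Ccnd2 and Cdkn1c differed by 0.64 and 0.96 (limma, adjusted p = 0.0066 and 0.00216), the first being cyclin D2 and the second a cyclin-dependent kinase inhibitor. Mitf, the pigment cell transcription factor, differed by 0.65 (limma, adjusted p = 0.0186), a call that was lost without control replicate 2 (0.54), with the median of its probe sets (0.52) and without moderation of the variance (adjusted p = 0.116). Aqp1, a water channel of ciliary epithelium, differed by 1.34 from a control level below the array median, and by 0.54, not called, with a pseudocount of 16. Otx1, a homeobox gene of the margin and the pigmented epithelium, read 7.69, 7.68 and 7.69 in mutant cells and 7.71, 7.59 and 7.69 in control cells, a difference of 0.02 with an interval of -0.12 to 0.16.

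Control replicate 2 was often the lowest control array among the member probe sets. It was the lowest control array for 6 of the 8 probe sets called higher and for 11 of the 16 with a positive difference. Many of these probe sets share a gene, and the share over all probe sets was not counted. On the same array the summed intensity of 14 pigment epithelium markers was 6597, against 8034 and 8054 in the other controls, and that of 12 endothelial markers was 730, against 919 and 959. It was not the lowest throughout: lens and surface ectoderm markers summed to 3783 on it, against 3461 and 2772 in the other controls, and mesenchyme and neural crest markers to 810, against 764 and 791. Without control replicate 2, 6 of the 24 member probe sets were called higher, those of Bmp4, Sostdc1 and Wls, and 9 called pigment epithelium markers became 5. The count of member probe sets called higher was also 6 without mutant replicate 2.

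Markers of other cell types differed between the genotypes too. Over all genes, 2.28% were called higher and 0.918% lower. The pigment epithelium markers summed to 10824 to 10879 in mutant cells, against 6597 to 8054 in control cells, and 9 of 14 were called higher. Lens and surface ectoderm markers summed to 4882 to 5132 in mutant cells, against 2772 to 3783 in control cells (5 of 16 higher). Mesenchyme and neural crest markers summed to 1146 to 1563 in mutant cells, against 764 to 810 in control cells (7 of 14 higher), and endothelial markers to 1224 to 1320 in mutant cells, against 730 to 959 in control cells (5 of 12 higher). Blood and macrophage markers summed to 10195 to 10666 in mutant cells, against 7934 to 10183 in control cells, and 0 of 10 were called by limma, with 1 at an unadjusted p under 0.05. Optic stalk markers summed to 151 to 177 in mutant cells, against 90.4 to 111 in control cells, but of the 3 genes only Ntn1 was called (1.01), while Vax1 differed by -0.17 and Nkx2-1 by 0.00229 from values below the array median.

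Retinal progenitor markers summed to 6160 to 6351 in mutant cells, against 9121 to 9702 in control cells, with 0 of 11 higher and 3 lower. The 3 were Fgf15 (-1.43), Dkk3 (-1.03) and Sfrp2 (-0.98), while the other 8 differed by between -0.52 and 0.06. The progenitor list includes Pax6, the deleted gene. Postmitotic neuron markers summed to 1272 to 1398 in mutant cells, against 2236 to 2837 in control cells, with 1 of 11 higher and 6 lower. Among them are Atoh7 and Crx, which the study itself reported as altered on these same arrays, so their direction is not independent evidence. The differences in this neuron list ran between -1.70 and 2.31, so its largest change was an increase. Beside the counts of both lists, 2.28% of all genes were called higher and 0.918% lower. Of the pigment epithelium genes, Rpe65, which marks mature pigment epithelium, was below the array median in both genotypes. The part of these other cell types in the values of the 10 genes was not tested. In pooled sorted cells, a change in the share of cells of a type and a change in RNA per cell cannot be told apart.

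**Figure D4:**
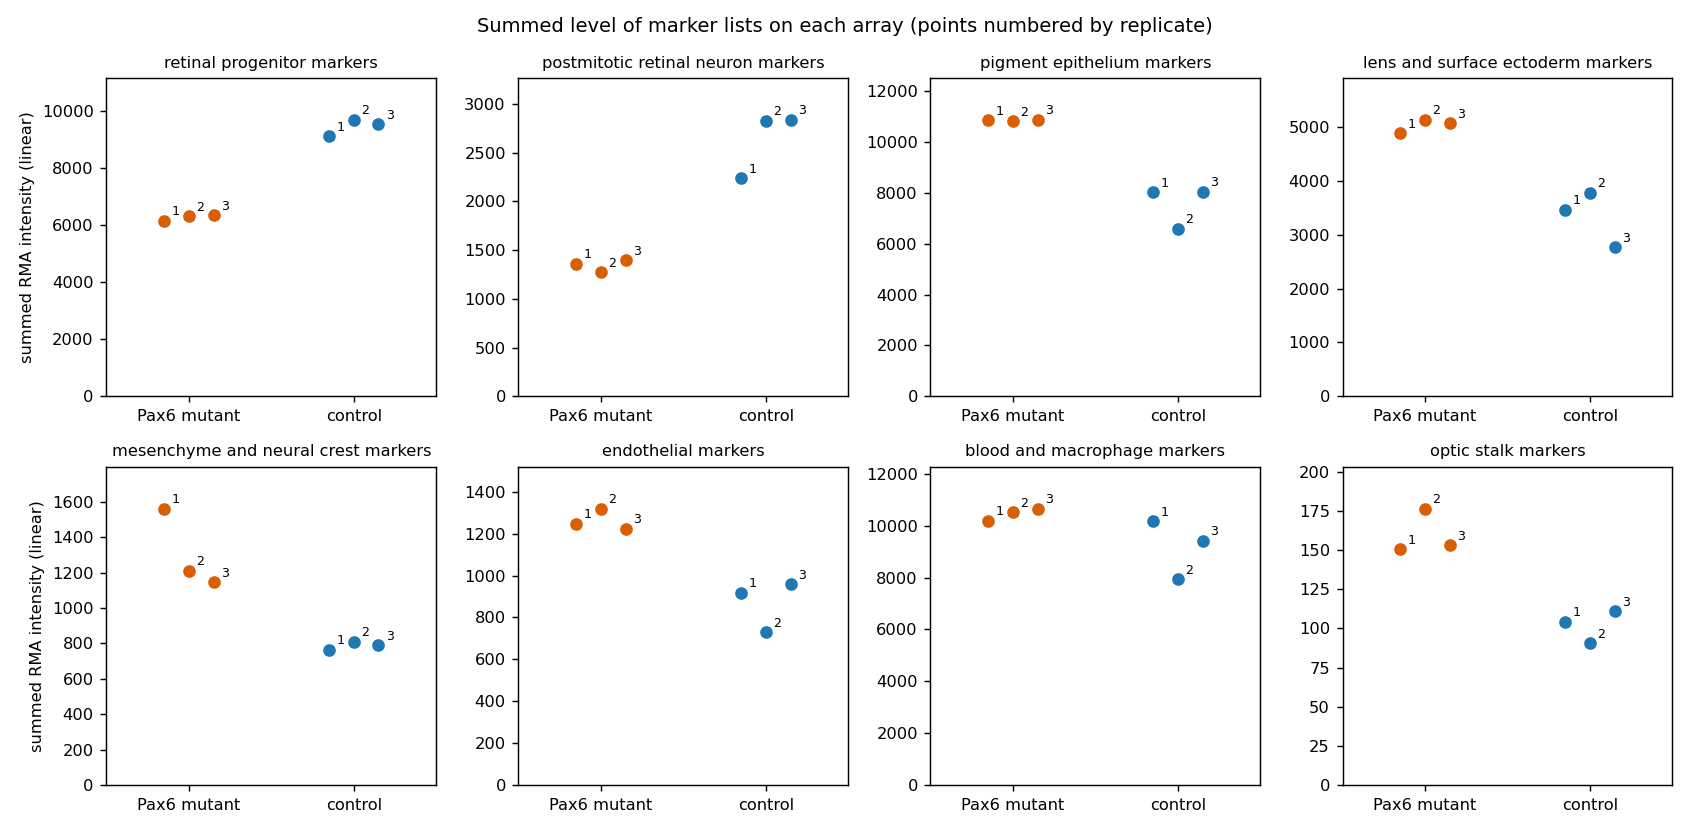
Summed linear RMA intensity of each marker list on each array, mutant arrays left of control arrays, on linear axes that start at 0, with points numbered by replicate. The pigment epithelium sums of the mutant arrays, 10824 to 10879, lie above those of the control arrays, 6597 to 8054, and the retinal progenitor sums lie below.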

How the data were processed

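RNA of 3 Pax6-mutant and 3 control pools was hybridised to Affymetrix mouse expression arrays, 1 array per pool. The deposited intensity values were made by the authors with RMA, which corrects the background, quantile-normalizes the arrays and summarises the probes of a set. RMA and the Affymetrix Expression Console are listed in the submitters' processing notes, with no version number. RMA pulls low values together, so a difference of a dim probe set may be understated.

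Values were put on the log2 scale with no pseudocount, 64 control probe sets were left out, and 45037 were fitted together with lmFit and eBayes (limma 3.58.1, R 4.3.3). Of these, 34945 had 1 gene symbol, 932 several and 9160 none. A gene was read by its brightest probe set with 1 symbol. Calls used the study's thresholds: 1.5-fold, p under 0.05, false discovery rate of 10%. Depth does not apply to arrays, and 3 arrays per group limit the precision. The fit was tested on simulated data, and the permutation test was not. The genes and the lists of BMP, Wnt, connexin and marker genes were chosen with earlier results of these data known. All probe sets of the 10 genes were named, and from the pathway lists the called genes plus some set ones. Alternatives covered the variance model, the normalization, a pseudocount, a filter on dim probe sets, array weights, the probe set of a gene, the fold threshold, a replicate block and each array left out. Promoters are from RefSeq, with 250 bases before the start and 50 after it, and motifs were searched on both strands.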

Additional observations from a re-analysis of the deposited data

How the results depend on the processing

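The number of member probe sets called higher, 8, was 3 without moderation of the variance, 0 with a SAM-type statistic, 2 at a fold change of at least 2, and 6 to 8 with each array left out. The number called lower, 1, was 0 without moderation, with the SAM-type statistic, with a pseudocount of 16 and at a fold change of at least 2, and 5 with no fold threshold. It stayed at 1 with each array left out. By the brightest probe set, the 3 genes higher became 0 with the SAM-type statistic and 1 at a fold change of at least 2. The 1 gene lower became 0 without moderation, with the SAM-type statistic, with the pseudocount and at a fold change of at least 2, and 3 with no fold threshold. These counts were 3 and 1 for each array left out. The SAM-type statistic adds the median standard error to each standard error and takes p from a t distribution, without permutation. It is not the SAM software that the study used. It called 0 of all 45037 probe sets, so its lack of calls says nothing on a single gene. Over all probe sets, 752 higher and 443 lower became 282 and 178 without moderation, 343 and 174 with the pseudocount, 154 and 109 at a fold change of at least 2, and 2268 and 2049 with no fold threshold.

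Bmp4 and the Wls probe sets 1423824_at and 1437434_a_at were called in all 14 alternatives other than the SAM-type statistic and the changed fold thresholds. The Bmp7 probe set 1432410_a_at was called in 8 of the 14 and the Gja1 probe set 1415801_at in 7. The difference of the dim Msx2 probe set 1438351_at, -0.02, turned to 0.0070 with a second quantile normalization, and to 0.016 without mutant replicate 2 and 0.088 without control replicate 2, in a range of -0.092 to 0.088 with each array left out. That of Otx1 turned to -0.0097 without control replicate 2 (range -0.0097 to 0.046), and that of Axin2 to -0.058 without it (range -0.058 to 0.078), -0.00071 with a second quantile normalization and -0.00048 with the median of its probe sets. With each array left out, the change in Bmp4 minus Bmp7 was 1.30 to 1.53, in Msx1 minus Msx2 -0.51 to -0.21 and in Zic1 minus Zic2 0.38 to 0.58.

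Mutant and control arrays share replicate numbers, but arrays of 1 number did not deviate together (correlations of -0.0106, -0.00064 and -0.0085), so the numbers were not read as pairs. With the replicate number as a block, 7 member probe sets were called higher and 1 lower, the lost one being that of Gja1. Of the other genes named, the call of Bmp2 was lost with the block. Probe sets below the array median, 5 of the 24, carry little information on their genes.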
